A study of Mus musculus with 51 samples.

Results

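The 6 caveolin and cavin genes (Cav1, Cav2, Cav3, Ptrf, Sdpr and Prkcdbp) were examined for H3K27ac and H3K4me1 peaks while mouse neural precursors became astrocytes. Ptrf, Sdpr and Prkcdbp are now also called Cavin1, Cavin2 and Cavin3. A peak was assigned to a gene when it overlapped the gene body or the 20 kb on either side, which gave 261 of the 803595 peaks in the 6 deposited lists. The 6 genes are 6 of 22359 protein-coding genes in the annotation used for all shares given here. The precursors (aNPC) were derived from embryonic stem cells of strain C57/BL-6 and kept in medium with EGF and FGF-2. Early astrocytes (eA) had spent 1 day, and late astrocytes (lA) 5 days, in medium with serum and LIF. Both ChIP marks were measured in 2 replicates per stage, which the authors merged before they called peaks. Each stage and mark is therefore 1 list, no difference between stages has a replicate error, and every value below is a description without a test. The cells are bulk cultures, so a mark in fewer cells and a weaker mark in every cell cannot be told apart.

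Caveolae are small flask-shaped pits of the plasma membrane. Caveolins are membrane proteins that insert into the inner leaflet and oligomerise. Cavins are soluble coat proteins that assemble on caveolin-rich membrane and are needed for the pit to form or to keep its shape. Caveolae are abundant in endothelium, fibroblasts, fat and muscle, where they buffer membrane tension and organise signalling and lipid uptake, and they have also been described in astrocytes. H3K27ac marks active promoters and enhancers, and H3K4me1 marks enhancers that are active or primed. The 2 caveolins Cav1 and Cav2 lie next to each other on chromosome 6, with 25.1 kb between their start sites. Cav3 lies farther along the same chromosome beside Oxtr, the oxytocin receptor gene, and Ptrf lies beside Stat3 on chromosome 11, a signal-activated transcription factor gene.

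In the mm9 build with Gencode M1 annotation, Cav2 (ENSMUSG00000000058.6) is at chr6:17231185-17239115, Cav1 (ENSMUSG00000007655.9) at chr6:17256335-17291452 and Cav3 (ENSMUSG00000062694.6) at chr6:112409495-112422865, all on the plus strand. Sdpr (ENSMUSG00000045954.6) is at chr1:51345970-51359803 on the plus strand. Prkcdbp (ENSMUSG00000037060.2) at chr7:112629121-112630711 and Ptrf (ENSMUSG00000004044.8) at chr11:100818047-100832201 are on the minus strand. Distances below are from the first base of the gene to the summit of a peak in kb, with negative values upstream. The DNA ahead of each start is printed first because 4 of the 6 genes hold a motif searched for there. Each run is the 200 bases before the start, read in the direction of transcription, and capitals mark a motif.
Cav1 start, chr6:17256135-17256334, plus strand: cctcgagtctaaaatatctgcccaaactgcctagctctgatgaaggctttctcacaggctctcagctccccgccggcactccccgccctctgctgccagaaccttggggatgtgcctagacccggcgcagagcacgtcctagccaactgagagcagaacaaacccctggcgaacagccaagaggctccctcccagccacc
Cav2 start, chr6:17230985-17231184, plus strand: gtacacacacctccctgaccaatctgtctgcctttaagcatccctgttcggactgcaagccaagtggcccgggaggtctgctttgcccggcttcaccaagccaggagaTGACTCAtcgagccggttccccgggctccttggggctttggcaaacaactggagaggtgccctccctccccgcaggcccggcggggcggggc
Cav3 start, chr6:112409295-112409494, plus strand: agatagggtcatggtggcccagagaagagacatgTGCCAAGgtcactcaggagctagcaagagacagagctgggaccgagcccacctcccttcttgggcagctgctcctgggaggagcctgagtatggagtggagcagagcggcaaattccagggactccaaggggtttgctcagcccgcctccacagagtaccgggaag
Ptrf start, chr11:100832202-100832401, minus strand: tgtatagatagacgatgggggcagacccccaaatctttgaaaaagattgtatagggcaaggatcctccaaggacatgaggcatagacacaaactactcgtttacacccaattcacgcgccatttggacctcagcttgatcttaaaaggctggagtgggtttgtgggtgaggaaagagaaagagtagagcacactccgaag
Sdpr start, chr1:51345770-51345969, plus strand: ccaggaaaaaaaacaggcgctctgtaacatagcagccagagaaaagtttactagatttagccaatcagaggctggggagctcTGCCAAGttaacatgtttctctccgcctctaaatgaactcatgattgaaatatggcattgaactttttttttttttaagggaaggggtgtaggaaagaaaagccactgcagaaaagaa
Prkcdbp start, chr7:112630712-112630911, minus strand: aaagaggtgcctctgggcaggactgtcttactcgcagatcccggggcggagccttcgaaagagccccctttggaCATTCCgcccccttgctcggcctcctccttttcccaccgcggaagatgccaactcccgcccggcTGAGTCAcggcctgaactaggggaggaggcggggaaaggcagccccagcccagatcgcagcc

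6 motifs were searched on both strands: TGACTCA (AP-1 and Atf3), TGCCAAG (a half-site of the NF1 family, which includes Nfia), TGTGGTT (RUNX), GGAATG (TEAD), TTCCNGGAA (STAT) and the CArG box of SRF. TTCCNGGAA and GGAATG can share bases. A match describes the sequence only. TGACTCA stood ahead of Cav2 and Prkcdbp, 2 of 6 genes, against 3.11% of 22354 coding genes over the same 200 bases. TGCCAAG stood ahead of Cav3 and Sdpr, again 2 of 6, against 3.32%. Prkcdbp also held GGAATG, present ahead of 8.97% of genes. The other searched motifs had no match in these 6 windows. Base composition varied among the members: G and C made up 40.5% of the Sdpr run and 47.0% of the Ptrf run, against 60.0% to 65.5% for the other 4 and a median of 55.5% over all genes. The ratio of observed to expected CpG was 0.226 ahead of Cav3 and 0.248 ahead of Sdpr, and 0.610 ahead of Prkcdbp, with a median of 0.518 over all genes.

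The next 7 runs are 200 bases centred on H3K27ac summits that the results below return to, written in the direction of transcription of the gene named. 4 are the leading peak of their gene and stage outside other genes, and those of Cav2, of Cav3 in eA and of Sdpr at 1.9 kb were chosen after their values were seen, because they hold a motif. No searched motif lay in those 4 leading summits.
Cav2 lA summit at -14.6 kb, chr6:17216451-17216650, plus strand: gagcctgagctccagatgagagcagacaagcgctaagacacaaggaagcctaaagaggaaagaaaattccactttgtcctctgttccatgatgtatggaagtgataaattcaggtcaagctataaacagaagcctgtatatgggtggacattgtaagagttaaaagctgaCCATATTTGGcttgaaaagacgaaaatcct
Cav3 eA summit at 0.9 kb, chr6:112410316-112410515, plus strand: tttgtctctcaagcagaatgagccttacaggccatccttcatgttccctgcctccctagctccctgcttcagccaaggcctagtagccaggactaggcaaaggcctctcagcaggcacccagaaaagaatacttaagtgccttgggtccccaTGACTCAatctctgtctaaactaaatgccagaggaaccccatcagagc
Cav3 lA summit at 6.7 kb, chr6:112416113-112416312, plus strand: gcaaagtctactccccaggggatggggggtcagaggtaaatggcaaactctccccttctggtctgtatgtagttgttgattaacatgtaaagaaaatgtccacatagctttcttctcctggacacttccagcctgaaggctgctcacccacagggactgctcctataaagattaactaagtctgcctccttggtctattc
Ptrf aNPC summit at 24.2 kb, chr11:100807865-100808064, minus strand: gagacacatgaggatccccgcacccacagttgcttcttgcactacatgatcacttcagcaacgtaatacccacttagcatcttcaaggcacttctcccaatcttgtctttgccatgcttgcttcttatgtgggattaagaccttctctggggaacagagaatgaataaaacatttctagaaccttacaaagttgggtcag
Ptrf lA summit at 8.6 kb, chr11:100823532-100823731, minus strand: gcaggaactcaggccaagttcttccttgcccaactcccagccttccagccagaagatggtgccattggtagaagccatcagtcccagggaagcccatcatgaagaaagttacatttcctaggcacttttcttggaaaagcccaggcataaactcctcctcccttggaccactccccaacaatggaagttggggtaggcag
Sdpr eA summit at 1.9 kb, chr1:51347780-51347979, plus strand: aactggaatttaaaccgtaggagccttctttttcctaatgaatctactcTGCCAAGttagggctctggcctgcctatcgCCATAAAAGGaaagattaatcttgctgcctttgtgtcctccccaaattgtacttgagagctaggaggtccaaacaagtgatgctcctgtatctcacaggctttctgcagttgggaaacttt
Sdpr eA summit at 26.2 kb, chr1:51372099-51372298, plus strand: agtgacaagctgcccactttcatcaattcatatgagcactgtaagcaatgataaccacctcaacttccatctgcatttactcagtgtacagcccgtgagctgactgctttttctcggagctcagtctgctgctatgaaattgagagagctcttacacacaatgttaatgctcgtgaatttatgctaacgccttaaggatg

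Over the joined windows of the 6 genes, which span 303 kb, there were 20 H3K27ac peaks in precursors, 38 in early astrocytes and 45 in late astrocytes. Their covered length was 12.2 kb, 20.7 kb and 22.1 kb. H3K4me1 peaks numbered 39, 59 and 60, covering 25.0 kb, 36.1 kb and 36.4 kb. Both marks thus covered more at the astrocyte stages than in precursors in the full lists. The lists themselves grew less, from 79413 H3K27ac peaks (aNPC) to 83433 (eA) and then 92700 (lA). The H3K4me1 lists held 154238, 185478 and 208333 peaks. With the same number of peaks kept from each list, the H3K27ac count of the windows was 20, 36 and 33, and the H3K4me1 count 39, 54 and 43. When peaks under a -log10 q of 5 were left out, the lA count of H3K27ac was 28 in place of 45.

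Every one of the 6 members had more H3K27ac peaks in eA than in aNPC, as 41.2% of coding genes did. The numbers for aNPC, eA and lA were 3, 4 and 6 for Cav1, 4, 5 and 6 for Cav2, and 2, 9 and 8 for Cav3. They were 8, 12 and 11 for Ptrf, 4, 8 and 8 for Sdpr, and 1, 2 and 8 for Prkcdbp. The windows of Cav1 and Cav2 overlap and share peaks, so these are not 6 separate observations. For Cav1, Cav2 and Prkcdbp the step from aNPC to eA is 1 peak. With equal numbers of peaks per list it became -1 for Cav1 and 0 for Cav2. With a 5 kb flank it became 0 for Cav1 and -1 for Cav2, which leaves 4 of 6 members with more peaks under either setting. The step became 0 for Cav1 and Prkcdbp when peaks under a -log10 q of 5 were left out. The 41.2% of coding genes was not recounted under these settings. Steps of 4 or more were those of Cav3, Ptrf and Sdpr, and Prkcdbp gained 6 peaks between eA and lA. With a 5 kb flank the Cav3 step was 2 in place of 7, and the Prkcdbp gain was 1 in place of 6. Without peaks at or inside Oxtr, the Cav3 window held 1, 3 and 5 H3K27ac peaks in aNPC, eA and lA. From eA to lA, 3 of 6 members had more H3K27ac peaks, against 28.2% of coding genes.

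**Figure D1:**
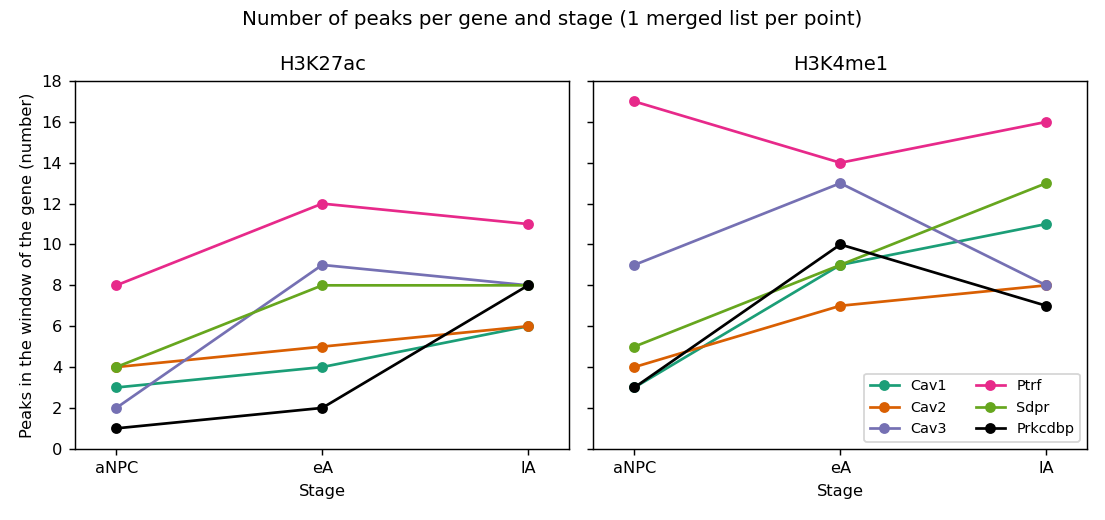
Number of H3K27ac peaks (left) and H3K4me1 peaks (right) in the window of each gene (y axis, number) at each stage (x axis), 1 merged list per point and no error available. H3K27ac counts rise from aNPC to eA for all 6 genes, most for the Cav3 window from 2 to 9. Without peaks at or inside Oxtr that rise is from 1 to 3. Prkcdbp goes from 2 to 8 between eA and lA.

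H3K4me1 followed a less uniform course. From aNPC to eA, 5 of 6 members had more peaks, against 48.9% of coding genes, and Ptrf had fewer, with 17 in aNPC, 14 in eA and 16 in lA. From eA to lA, 4 of 6 had more, against 40.0%. The lA list is the longer one, and with equal numbers of peaks per list none of the 6 had more H3K4me1 peaks in lA than in eA. The changes were 0 for Cav1, Cav2 and Ptrf, -1 for Sdpr, -4 for Prkcdbp and -6 for Cav3. The 40.0% is for the full lists and was not recounted under that setting. Cav1 went from 3 to 9 to 11 peaks and Sdpr from 5 to 9 to 13. The length covered at Sdpr was 4604 bp, 6734 bp and 6656 bp, so from eA to lA its count rose and its length did not. Cav2 went from 4 to 7 to 8. Cav3 with 9, 13 and 8 peaks and Prkcdbp with 3, 10 and 7 had their highest number in eA.

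**Figure D2:**
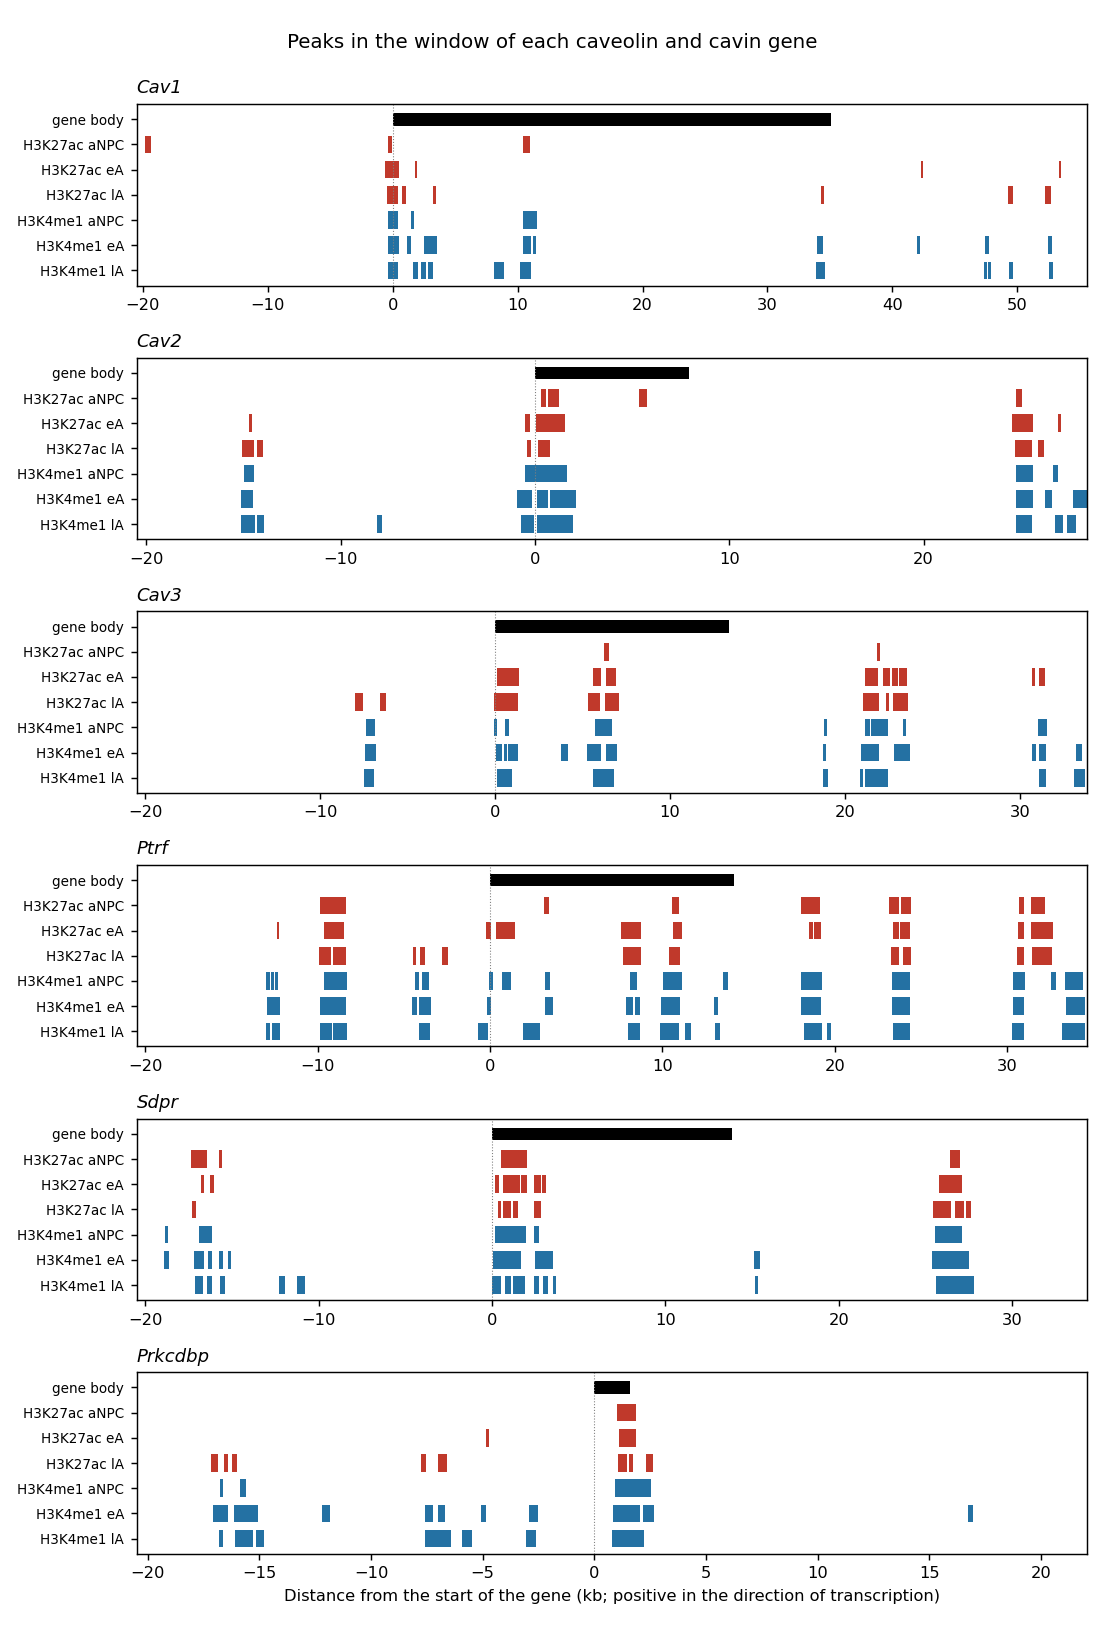
Position of every peak in the window of each gene, in kb from the start of the gene in the direction of transcription (x axis), with 1 row per list (H3K27ac red, H3K4me1 blue) and the gene body in black. Bar width is the width of the peak. H3K4me1 is already present in aNPC in the Cav3 intron and 26.5 kb from the Sdpr start, where H3K27ac bars are narrow or missing in aNPC and wide in eA and lA.

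A promoter was taken as the 100 bp after and the 1 kb before any coding start of the gene. Promoter H3K27ac was listed at 1 of 6 members in precursors, and at 3 of 6 both in early and in late astrocytes. The shares of all coding genes were 50.6%, 53.2% and 48.2%. By this definition the members lay below the general share in aNPC and near it afterwards. Cav1 had one at all stages, Cav2 in eA and lA, Cav3 in lA and Ptrf in eA, and Sdpr and Prkcdbp had none. By this definition Cav2 and Ptrf gained one between aNPC and eA, 2 of 6 members against 4.23% of coding genes. At Cav2 the aNPC list already had peaks at 0.5 kb and 0.8 kb, just past the end of the promoter. Promoter H3K4me1 was present at 4, 5 and 5 members, against 55.4%, 53.6% and 52.7% of coding genes. It was found at Cav1, Cav2, Cav3 and Ptrf at all stages, at Sdpr in eA and lA, and never at Prkcdbp. Its count fell to 2 in aNPC when peaks under a -log10 q of 5 were left out, and to 3 in eA and 3 in lA when the summit had to lie inside the promoter. With 1 kb on either side of any start it was 6 of 6 at each stage, Sdpr and Prkcdbp included, but the share of coding genes was not counted for that promoter. These calls depend on where the promoter ends, since Cav2, Sdpr and Cav3 carry H3K27ac peaks that begin just inside the gene. With 1 kb on either side of any start, 3 members had a promoter H3K27ac peak in aNPC and 5 in eA.

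Cav1, the main structural caveolin of non-muscle cells, had 1 H3K27ac peak at its promoter that all 3 lists shared. In aNPC it was 319 bp wide and ranked in the top 60.0% of its list by -log10 q. In eA it was 1092 bp wide, at chr6:17255720-17256811, and ranked in the top 28.4%. In lA it was 874 bp wide and ranked in the top 60.9%. The Cav1 promoter was therefore placed highest in eA. By fold, the aNPC and lA peaks were in the top 41.9% and 63.4%. H3K4me1 at the same promoter changed little in width, with peaks of 845 bp, 860 bp and 786 bp at the 3 stages. In lA a second, weaker promoter peak at 0.9 kb was listed in the top 92.9%. An intronic H3K27ac peak at 10.5 kb was found in aNPC alone, in the top 65.8%, while H3K4me1 stayed there at all 3 stages. Beyond the 3' end of the gene, H3K27ac peaks at 49.5 kb and 52.3 kb were found in lA alone, in the top 67.2% and 55.5%. Others at 42.4 kb and 53.4 kb were found in eA alone, in the top 94.1% and 53.9%. H3K4me1 lay at 52.6 kb in eA and at 52.7 kb in lA, and was not listed there in aNPC.

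Cav2, which forms hetero-oligomers with Cav1, had the highest-ranked caveolin peak of eA. The peak at 0.3 kb, chr6:17231228-17232710, was 1483 bp wide with a -log10 q of 68.4 and ranked in the top 9.52% of the eA list. In aNPC the same stretch held 2 peaks of 273 bp and 563 bp, in the top 67.7% and 33.9%. In lA it held a peak of 628 bp in the top 25.4%. Cav1 and Cav2 had the same course at their starts, with the widest and highest-ranked peak in eA. A short peak at -0.3 kb was listed in eA and lA and not in aNPC. Upstream at -14.6 kb, an intergenic H3K27ac peak was found in eA (top 76.2%) and lA (top 41.0%) but not in aNPC. H3K4me1 at that site was listed at all stages, in the top 48.9%, 14.1% and 3.50% of the aNPC, eA and lA lists. The 200 bases at this summit hold the CArG box shown above, as do 0.924% of all eA summits and 0.965% of all lA summits.

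Cav3, known mainly as the caveolin of muscle, differed most of the 6 in the length covered by H3K27ac between precursors and astrocytes. Its window held 2 H3K27ac peaks in aNPC, at 6.3 kb in the gene and at 21.9 kb, in the top 79.8% and 74.1% of the list. In eA it held 9 and in lA 8. The covered length rose from 511 bp to 4690 bp and 5540 bp over the 3 stages, which is 0.957%, 8.79% and 10.4% of the window. The rank of the covered length among all coding genes was 29.4, 83.5 and 88.3 on a scale of 0 to 100, so the Cav3 window moved from the lower to the upper part of all genes, partly through peaks in Oxtr. Most of these peaks fell into 3 groups. Outside them were the lA peaks at -7.8 kb (478 bp) and -6.4 kb (301 bp), and a pair of eA peaks at the Oxtr promoter. The first lay at the 5' end of the gene, with none listed in aNPC. The eA peak, chr6:112409630-112410849, began inside the gene and ranked in the top 29.4%, and by fold in the top 46.1%. The lA peak, chr6:112409427-112410776, covered the start and ranked in the top 26.7%, but in the top 83.6% by the fold value of the peak caller. The second lay in an intron at 5.8 kb and at 6.5 kb in eA and 6.7 kb in lA. The eA peaks there were in the top 22.2% and 19.5%, and the lA peaks in the top 14.2% and 5.73%. By fold these ranks were lower, with 37.2% and 25.8% for the eA peaks and 69.5% and 33.9% for the lA peaks.

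The third group lay from 21.7 kb to 23.4 kb, inside an intron of Oxtr, and cannot be assigned to Cav3 rather than Oxtr from position alone. It held 4 peaks in eA and 3 in lA, with the highest at 21.7 kb in eA (top 28.6%) and at 23.4 kb in lA (top 15.6%). By fold these were in the top 61.7% and 75.7%, and the 7 peaks ranged from 61.7% to 98.0%. The promoter of Oxtr itself carried 2 H3K27ac peaks in eA, of 210 bp and 340 bp, in the top 73.7% and 86.7%, and none in aNPC or lA. H3K4me1 was already present in aNPC at all 3 groups, with the highest rank at 22.1 kb (top 29.7%) and at 5.9 kb (top 48.0%). The AP-1 letters TGACTCA are found near the 0.9 kb summit in eA and the 1.1 kb summit in lA, the same letters in overlapping windows. Over the 6 genes, 1 of 38 eA summits and 2 of 45 lA summits held TGACTCA, against 3.58% and 3.47% of all summits of those lists.

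The study used Cav2 and Cav3 as sites for ChIP-PCR, and both primer pairs matched mm9 once. Capitals mark the primers in the regions they amplify.
Cav2 primer region, chr6:17231519-17231584, plus strand: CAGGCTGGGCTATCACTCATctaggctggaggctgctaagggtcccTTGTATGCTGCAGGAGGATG
Cav3 primer region, chr6:112374038-112374102, plus strand: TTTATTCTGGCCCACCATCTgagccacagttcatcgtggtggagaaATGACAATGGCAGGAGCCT
The Cav2 region, 66 bp long and 0.4 kb into the gene, is intronic and lay inside an H3K27ac peak and an H3K4me1 peak at all 3 stages. The Cav3 region, 65 bp long, is at -35.4 kb and so outside the window. It lay in an H3K27ac peak of eA (top 55.4%) and in no H3K27ac peak of aNPC or lA. H3K4me1 covered it at all stages, in the top 80.6%, 28.0% and 70.2% of the aNPC, eA and lA lists. Neither region holds an exact match to one of the 6 motifs. Per its methods, the paper placed its ChIP primers over predicted motifs of Nfia, Atf3 or Runx2, and it reported binding at the selected sites. Its motif prediction used another method (HOMER), which was not repeated here.

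Ptrf, the cavin that all caveolae need, had the most peaks of any member, and its leading peaks differed in stage inside and outside the gene. Between the gene and the Stat3 promoter, and upstream, the leading peaks ranked highest in precursors. The intergenic peak at 24.2 kb, chr11:100807764-100808355, had a -log10 q of 106 and was in the top 6.20% in aNPC, but in the top 48.2% in eA and 27.5% in lA. Neighbouring peaks at 23.4 kb (aNPC) and 23.5 kb (eA and lA) were in the top 22.2%, 63.7% and 38.6%, but by fold in the top 40.7%, 49.8% and 33.9%, with lA highest. A peak at 18.3 kb was in the top 23.6% in aNPC, replaced by 2 narrow peaks in eA at 18.6 kb and 18.9 kb, and was not listed in lA. The upstream peak at -8.8 kb was in the top 19.5% in aNPC. Peaks over that region led at -9.4 kb in eA (top 35.5%) and -8.8 kb in lA (top 45.3%). In lA, 3 further upstream peaks from -4.3 kb to -2.6 kb were listed, in the top 70.3% to 86.7%. H3K4me1 was listed at 18.7 kb and 24.2 kb at all 3 stages, in the top 6.86%, 2.08% and 2.93% at the first and the top 3.34%, 3.68% and 9.54% at the second. By fold these were 22.6%, 6.43% and 10.6% at the first, and 4.51%, 1.70% and 11.9% at the second, where eA then ranked highest.

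Inside Ptrf, the leading peaks were those of eA and lA. At the start of the gene, H3K27ac peaks of 312 bp at -0.1 kb and 1152 bp at 0.8 kb were found in eA alone, in the top 52.9% and 21.8%. An intronic peak at 8.6 kb was found in eA (1168 bp, top 31.3%) and lA (1006 bp, top 16.3%) and not in aNPC, where H3K4me1 was already listed at 8.3 kb. The intronic peak at 10.9 kb was in the top 67.4%, 48.1% and 39.2% in aNPC, eA and lA, but by fold in the top 68.4%, 72.5% and 68.2%. A weak intronic peak at 3.4 kb was found in aNPC alone, in the top 98.7%. The window also reaches the promoter of Stat3, whose start lies 31.3 kb from that of Ptrf. The H3K27ac peak there, at 31.7 kb, was among the strongest of each list, in the top 0.427%, 0.234% and 0.0960%. It is the highest-ranked peak of the Ptrf window at every stage and belongs to Stat3 by position. The peaks from 18 to 24 kb lie between the 2 genes. They were counted in the Ptrf window, and position alone does not say to which gene they belong.

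Sdpr, a cavin that binds phosphatidylserine and bends membrane, had its highest-ranked astrocyte peaks at a distal site that carried H3K27ac at all 3 stages. The site at 26 kb beyond its start, intergenic, was in the top 74.1% of the aNPC list with a peak of 578 bp. In eA it held a 1372 bp peak at chr1:51371717-51373088 with a -log10 q of 77.8, in the top 7.84%. In lA it held peaks at 26.2 kb, 26.9 kb and 27.5 kb, in the top 8.60%, 11.9% and 34.8%. By fold, the leading lA peak was in the top 16.7%. H3K4me1 covered the site strongly at every stage, in the top 3.14%, 4.48% and 3.55%. A high-ranked H3K4me1 peak thus lay beside a low-ranked H3K27ac peak in precursors. No coding gene other than Sdpr has a start in the window.

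The first 3.0 kb of Sdpr carried H3K27ac at all stages, with the leading peak at 1.5 kb in aNPC (top 30.8%), 2.5 kb in eA (top 29.2%) and 0.8 kb in lA (top 39.6%). Most of the peaks that Sdpr gained were counted here, since the step of 4 peaks from aNPC to eA was also 4 with a 5 kb flank. Regions at 0.3 kb and 2.6 kb had H3K27ac in eA and lA but not in aNPC, and one at 3.0 kb had it in eA alone. In aNPC the first 3.0 kb held a single peak of 1480 bp, which the eA peaks at 0.7 kb and 1.9 kb both overlap. Part of the step is thus a split peak. H3K27ac covered 3155 bp, 4024 bp and 3519 bp of the Sdpr window in aNPC, eA and lA. Of the eA list, 5 peaks lay between 0.3 kb and 3.0 kb, and the one at 1.9 kb holds both TGCCAAG and a CArG box in the run printed above. TGCCAAG is present at 4.60% and the CArG box at 0.924% of all eA summits. Far upstream, a peak at -16.6 kb was in the top 35.3% in aNPC. The eA peaks at -16.8 kb and -16.2 kb were in the top 94.1% and 49.4%, and the lA peak at -17.2 kb in the top 90.8%.

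Prkcdbp, a cavin also known as a binding protein of protein kinase C delta, has the shortest gene of the 6 at 1591 bp. 1 H3K27ac peak at 1.3 kb, over its coding exon, was listed at all stages, in the top 46.9%, 27.6% and 33.6% of the aNPC, eA and lA lists. With the promoter ending 100 bp after the start, no list had a promoter peak of either mark at Prkcdbp. The lA list held 7 further peaks, 5 of them upstream between -17.0 kb and -6.7 kb. The one at 1.6 kb lay within the stretch that the aNPC and eA peaks cover, so 6 regions were seen in lA alone. Of these the one at -6.7 kb ranked highest, in the top 46.1%. The others were weak, in the top 76.9% to 93.4%. H3K4me1 at -6.9 kb in lA was wide, at 1166 bp, and in the top 3.04% of its list, while eA had 2 short peaks at -7.4 kb and -6.8 kb and aNPC none. When peaks under a -log10 q of 5 were left out, the gain of H3K27ac from eA to lA at Prkcdbp was 2 in place of 6.

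**Figure D3:**
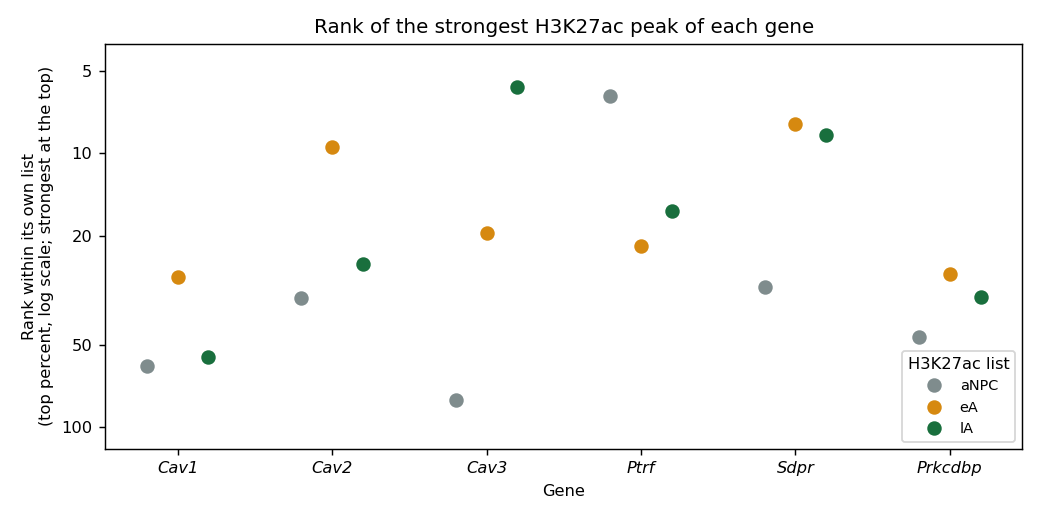
Rank of the highest H3K27ac peak of each gene within its own list, as a top percent by -log10 q (y axis, log scale, strongest at the top), by stage (colour); peaks at or inside another coding gene are left out. Cav1, Cav2, Cav3, Sdpr and Prkcdbp have their lowest rank in aNPC, and Ptrf its highest, with 6.20% for an intergenic peak. Ranked by fold, Cav1 has its lowest rank in lA (53.6%).

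The members fell into different orders of stage. By the rank of the leading H3K27ac peak, without peaks at or inside another coding gene, Cav1, Cav2, Sdpr and Prkcdbp stood highest in eA, Cav3 in lA and Ptrf in aNPC. Ranked by fold, Cav3 stood highest in eA (25.8%) and lower in lA (33.9%). By -log10 q the place of Ptrf rests on the 24.2 kb peak between Ptrf and Stat3. Without the peaks from 18 to 24 kb its leading ranks were 19.5% (aNPC), 21.8% (eA) and 16.3% (lA), but by fold 18.6%, 28.3% and 25.6%, with aNPC highest. The Sdpr ranks of eA and lA, 7.84% and 8.60%, lie close together, and with no replicate lists it cannot be said whether they differ. The aNPC rank was the lowest of the 3 for every member but Ptrf. For Cav1 (60.0% in aNPC and 55.5% in lA) this order turned by fold, with 41.9% in aNPC and 53.6% in lA, and also by plain rank, with 47626 of 79413 peaks in aNPC and 51477 of 92700 in lA.

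H3K27ac peaks of the 3 stages were next merged into regions, 57 in the windows and 132992 in the genome, 4 of the 57 lying in both the Cav1 and the Cav2 window. Regions without a peak in aNPC made up 38 of the 57, against 44.4% of all regions. 4 of 57 had a peak in aNPC alone, against 21.5%. 9 had peaks in eA and lA but not aNPC, against 13.9%, and 18 had a peak in lA alone, against 19.3%. The lA list is the longest, and with equal numbers of peaks per list 10 regions were seen in lA alone. The 14 regions with a peak at all stages compare with 26.0% of the genome. Of the 9 regions shared by eA and lA, 4 were in the Cav3 window, 2 each in those of Cav2 and Sdpr, and 1 in that of Ptrf. Of the 18 seen in lA alone, 6 were at Prkcdbp and 5 at Cav1.

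**Figure D4:**
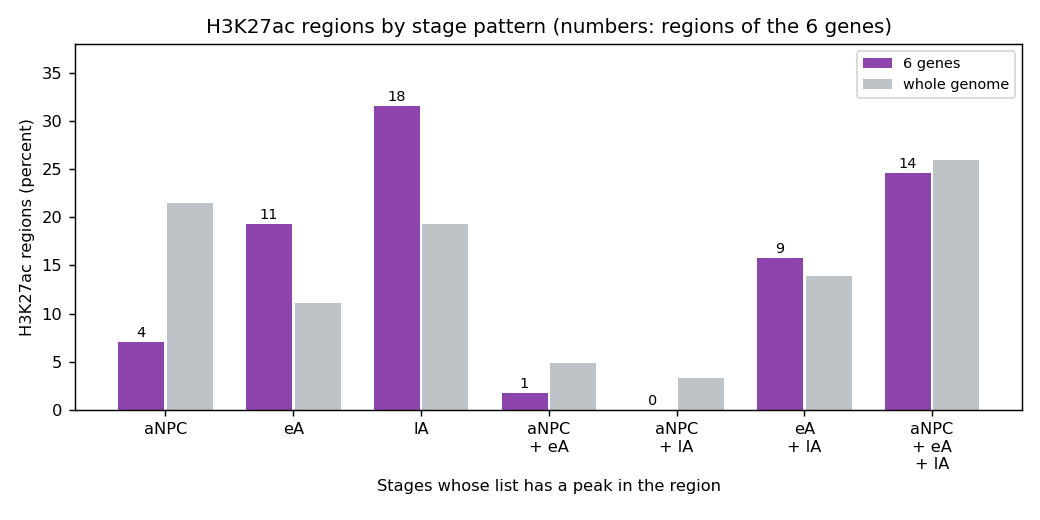
Share of H3K27ac regions (y axis, percent) by the stages whose list has a peak in the region (x axis), for the 57 regions of the 6 genes (purple, number above the bar) and the 132992 regions of the genome (grey). Regions seen in aNPC alone are 4 of 57 at these genes, and regions seen in lA alone are 18 of 57. With equal numbers of peaks per list, 10 regions were seen in lA alone.

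H3K4me1 of precursors was counted in the regions without H3K27ac in aNPC. Of the 9 eA and lA regions, 9 overlapped an H3K4me1 peak of aNPC, against 70.1% in the genome. Of the 18 regions seen in lA alone, 3 did, against 30.3%, and of the 11 seen in eA alone, 5 did, against 60.2%. Over all 38 regions without H3K27ac in aNPC the number was 17, against 50.3%. When peaks under a -log10 q of 5 were left out, 7 regions were seen in lA alone and 8 in both eA and lA.

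**Figure D5:**
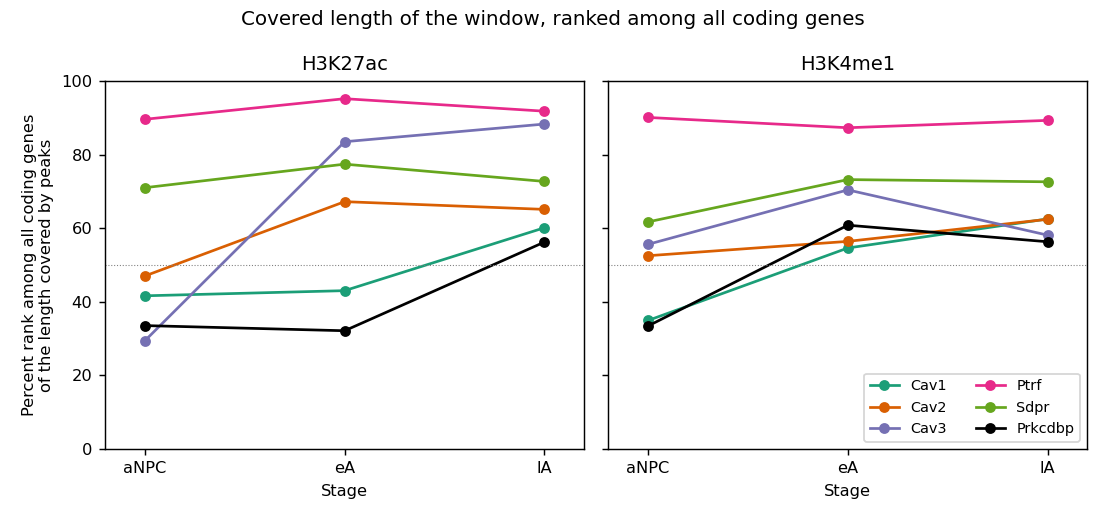
Percent rank, among 22359 coding genes, of the length covered by peaks in the window of each gene (y axis, 50 is the middle) at each stage (x axis), for H3K27ac (left) and H3K4me1 (right). The Cav3 window goes from 29.4 to 88.3 for H3K27ac between aNPC and lA, partly through peaks in Oxtr, while the Ptrf window, which holds the Stat3 promoter, stays between 89.6 and 95.2.

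Ranked by the length that peaks covered, Ptrf stayed near the top of all coding genes for both marks, from 87.3% to 95.2%, partly through peaks of Stat3. Sdpr lay between 71.0% and 77.4% for H3K27ac and between 61.7% and 73.2% for H3K4me1. Cav1 and Prkcdbp lay below the middle in aNPC for both marks and above it in lA. The median covered share of the window over the members was 2.70%, 7.05% and 6.31% for H3K27ac, against 2.47%, 2.80% and 2.70% over all coding genes. For H3K4me1 it was 7.67%, 12.2% and 11.5%, against 5.11%, 6.13% and 6.36%.

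The coding genes whose 6 percent ranks came closest to those of a member, outside the members' windows, were as follows. They were Syt15, Cd93 and Trappc8 for Cav1, with a mean difference of 2.47 to 3.31 rank points. For Cav2 they were Gm17672, Smyd1 and Trak2 (2.16 to 2.71). For Cav3 they were 1700084C01Rik, Gm17678 and Rab7l1 (3.86 to 5.58), the least close of the 6. The nearest for Ptrf were Wrap53, Samd4b and Copz1 (1.03 to 1.20), and for Sdpr they were Polr3c, Eif4ebp2 and Wsb2 (1.80 to 2.42). For Prkcdbp they were Gys2, Ugt1a10 and Ugt1a6a (2.96 to 3.33). No member was among the nearest genes of another, since windows overlapping a member's were left out. The likeness is over 6 lists and 22348 genes and speaks of covered length only.

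Other genes linked to caveolae or to their control were mostly marked at every stage. Of 17 listed (among them Ehd2 and its relatives, which sit at the caveola neck, the Pacsin genes, Dnm2, Flna, the flotillins and the SRF pathway genes Srf, Mkl1 and Mkl2), 16 had promoter H3K27ac in precursors and 14 at each astrocyte stage. The shares of all coding genes were 50.6%, 53.2% and 48.2% in aNPC, eA and lA. Only 3 of the 17 differed between stages. Murc, the fourth cavin, had a promoter peak in aNPC and lA but not eA, Ehd1 in aNPC and eA but not lA, and Cd36, a fatty acid transporter found in caveolae, in aNPC alone. Nos3 had none at any stage. Promoter H3K4me1 was present at 14, 13 and 13 of the 17, against 55.4%, 53.6% and 52.7% of coding genes.

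Since caveolae are typical of endothelium, fibroblasts and muscle, promoter peaks of marker genes of those cells were counted beside the members. Promoter H3K27ac was listed at 0, 1 and 1 of 6 endothelial markers in aNPC, eA and lA, and the 1 was Kdr. Pecam1, Cdh5, Cldn5 and Tie1 had no promoter peak of either mark at any stage. Promoter H3K4me1 was listed at 1, 1 and 2 of the 6 endothelial markers, at 3 of 6 fibroblast markers at each stage, and at 4, 5 and 5 of 7 muscle markers. Of 6 fibroblast markers 1 was listed at each stage (Pdgfra), and of 7 muscle markers 1 was listed at each stage, Myh11 in aNPC and Acta2 in eA and lA. Kdr and Acta2, listed in eA and lA only, thus had the pattern of Cav2 alone among the members, as did the astrocyte marker Gja1. Myh11 went the other way. What these markers have to do with the result was not tested. Of 8 astrocyte markers 6 carried promoter H3K27ac at each stage, Gfap, Slc1a3 and Sox9 among them, with Gja1 listed in eA and lA only and S100b in aNPC only. 4 of 5 neural progenitor markers carried it at each stage, and 2, 1 and 1 of the 4 neuronal markers found in the annotation, with Rbfox3 and Dcx at none.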

How the data were processed

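ChIP-seq libraries of 2 replicates per stage and mark were aligned by the authors with Bowtie to mm9, merged with SAMtools (0.1.19) and searched for peaks with MACS at default settings and without input. The authors deposited 1 peak list per stage and mark, with a fold ratio, -log10 q values and a summit offset (another unit, in bp) for each peak. Per the study's methods only uniquely aligned reads were kept, so peaks in repeats may be missing. Read depth cannot be had from the lists, and -log10 q rises with depth, so values were set side by side only as ranks within a list.

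Mitochondrial peaks, 4 to 5 per list, were left out. Windows, promoters and overlaps (at least 1 bp) were computed with Python 3.11.15 on Gencode M1, which shares the mm9 build of the lists, and the interval functions were tested on simulated data. Figures were drawn with matplotlib 3.10.9. Sequences were read from the mm9 genome and the primers from the study's primer table. No test was run. The genes named beyond the members were those whose start lies in a window, the 3 with the nearest covered-length ranks per member, and caveola genes whose promoter H3K27ac differed between stages. Other caveola genes and cell type markers are named as examples from their lists, chosen after their values were seen. The members and gene lists were chosen with earlier results of these data known. The alternatives tried were a -log10 q of at least 5, equal numbers of peaks per list, a 5 kb flank, summits in place of overlap, a symmetric promoter and ranks by fold. The RNA-seq samples, and the ChIP-seq samples of knockdowns and their controls, among the 51 in the series were not analysed here.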

Additional observations from a re-analysis of the deposited data

How the results depend on the processing

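No paired analysis was possible because the replicates were merged before peaks were called and the lists carry no replicate numbers, and no replicate could be left out for the same reason. With 5 kb in place of 20 kb on each side, the joined windows held 11, 20 and 21 H3K27ac peaks (aNPC, eA, lA) and 19, 31 and 28 H3K4me1 peaks, fewer because the windows are shorter. With a -log10 q of at least 5, H3K27ac peaks in lA numbered 28, regions seen in 1 stage alone were 2 (aNPC), 7 (eA) and 7 (lA), and 2 members had promoter H3K4me1 in aNPC. With equal numbers of peaks per list, 10 regions were seen in lA alone and 2 in aNPC and eA. With 1 kb on either side of any start, promoter H3K27ac was found at 3 members in aNPC and 5 in eA. With the summit required inside the promoter, promoter H3K4me1 was found at 3 members in eA and 3 in lA. Ranked by fold, the leading peak was in the top 21.4% for Cav2 in aNPC, 33.9% for Cav3 in lA, 16.7% for Sdpr in lA, and 2.56%, 2.21% and 2.04% for the Ptrf window in aNPC, eA and lA. Changes of 1 to 4 peaks per gene turned to -1 in 9 cases. For H3K27ac these were Cav1 from aNPC to eA with equal numbers of peaks (-1), Cav2 from aNPC to eA and from aNPC to lA with the 5 kb flank (-1 each), Cav2 from aNPC to lA with equal numbers (-1), and Cav2 from eA to lA with equal numbers and with the stricter q (-1 each). For H3K4me1 they were Cav2 and Ptrf from eA to lA with the 5 kb flank (-1 each) and Sdpr from eA to lA with equal numbers (-1). The cause was not tested. No reversal concerned a change of Cav3 or Prkcdbp.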
